A study of Mus musculus with 3 samples.

Results

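Neural progenitor-like tumour cells were chosen in each of 3 R26-SHH mouse rhabdoid tumours (tumours of the model below that the study places in an SHH subgroup) as the 20% of cells with the largest share of transcripts from Sox1, Sox11, Cd24a, Epcam and Msx3. A cell entered the ranking when it held at least 5000 unique molecular identifiers (UMIs, 1 per captured transcript), at most 15% mitochondrial UMIs, fewer than 2 of the immune genes C1qa, Tyrobp and Ctss, fewer than 2 of the vascular genes Cldn5, Pecam1 and Flt1, fewer than 2 of the neuronal genes Dcx, Stmn2 and Elavl4, and fewer than 3 of the mitotic genes Top2a, Mki67, Cenpf and Ube2c. Of 28380 barcodes, 6825 were ranked, and the top 20% within each tumour (the top group) gave 1364 cells (724, 289 and 351 in tumours 1, 2 and 3). They were compared with the bottom 20% (the bottom group, 1364 cells) and with the cells ranked between 40 and 60% (the middle group, 1364 cells). Each tumour came from a different mouse of the genotype Rosa 26-CreERT2::Smarcb1flox/flox, in which a tamoxifen-inducible Cre recombinase expressed from the ubiquitous Rosa26 locus removes floxed Smarcb1 in many cell types. There was no other group of animals and no untreated control, the ages were not given in the labels, and each tumour was a mixture of tumour and host cells. Libraries were made by 10x droplet capture from the 3′ end of transcripts, and UMI counts were summed over the cells of a group in each tumour, so n = 3 tumours throughout.

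Progenitors of the embryonic nervous system pass from self-renewing, radial glia-like cells to cells committed to become neurons. Proneural factors drive that step, also in the ganglionic eminence, the ventral forebrain zone that produces inhibitory neurons. They switch on the Notch ligand Dll1, which signals to neighbouring cells and holds them in the progenitor state through Hes1 and Hes5. The SoxC factors Sox4, Sox11 and Sox12 act after the proneural factors and open neuronal genes, while Sox1 and Sox2 belong to the SoxB1 group that keeps neural progenitors undifferentiated. Smarcb1 encodes a core subunit of the SWI/SNF chromatin remodelling complex, and its loss defines rhabdoid tumours.

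The gene that the model inactivates, Smarcb1 (ENSMUSG00000000902, chromosome 10, 75896769 to 75921617; positions are those of GENCODE M21 on GRCm38), was read first. In the top group its level was 0.385, 0.344 and 0.424 CPM (UMI counts scaled to the same total in each sum of cells) in tumours 1, 2 and 3, from 3, 1 and 3 UMIs. Immune cells of the same tumours had 22.3, 14.0 and 14.4 CPM. They were cells with at least 2 of the 3 immune genes that passed the UMI, mitochondrial, vascular and neuronal limits above, without the mitotic limit. The exact Poisson 95% intervals of the top group ended at 1.12, 1.91 and 1.24 CPM, below the lower bounds in immune cells (18.9, 10.8 and 10.49 CPM), and these intervals cover counting error only. The middle group was nearly as low, at 0.617, 1.43 and 0.807 CPM. The bottom group stood apart, at 5.77, 12.8 and 6.197 CPM. The log2 difference between top and bottom was -4.18 (SE 0.41, adjusted p 0.00232) by the quasi-likelihood test of edgeR, with p adjusted after Benjamini and Hochberg over all genes tested, as for every adjusted p below. With so few UMIs in the top group, Smarcb1 passed the filter on low counts only through the bottom group and was not tested in the other comparisons. The size of this difference is therefore uncertain.

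Markers of host cell types moved with this. Cells with at least 3 detected markers of oligodendrocytes, astrocytes, mural, endothelial, immune or ependymal and choroid plexus cells made up 5.25, 18.7 and 5.41% of the top group and 26.1, 49.5 and 19.9% of the bottom group. The summed level of the 10 oligodendrocyte genes was 54.9, 247 and 28.0 CPM in the top group and 2447, 9696 and 173 CPM in the bottom group, and that of the 10 mural genes 46.7, 14.4 and 38.0 against 759, 379.7 and 1908 CPM. With those cells left out before ranking, Smarcb1 in the bottom group was 1.96, 1.08 and 0 CPM. Part of the bottom group therefore carried Smarcb1 transcripts and host markers. For this reason the results below are also read against the middle group and against a bottom group re-drawn without those cells (the re-drawn bottom group). In that last comparison the top 20% was re-drawn without those cells too.

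**Figure D1:**
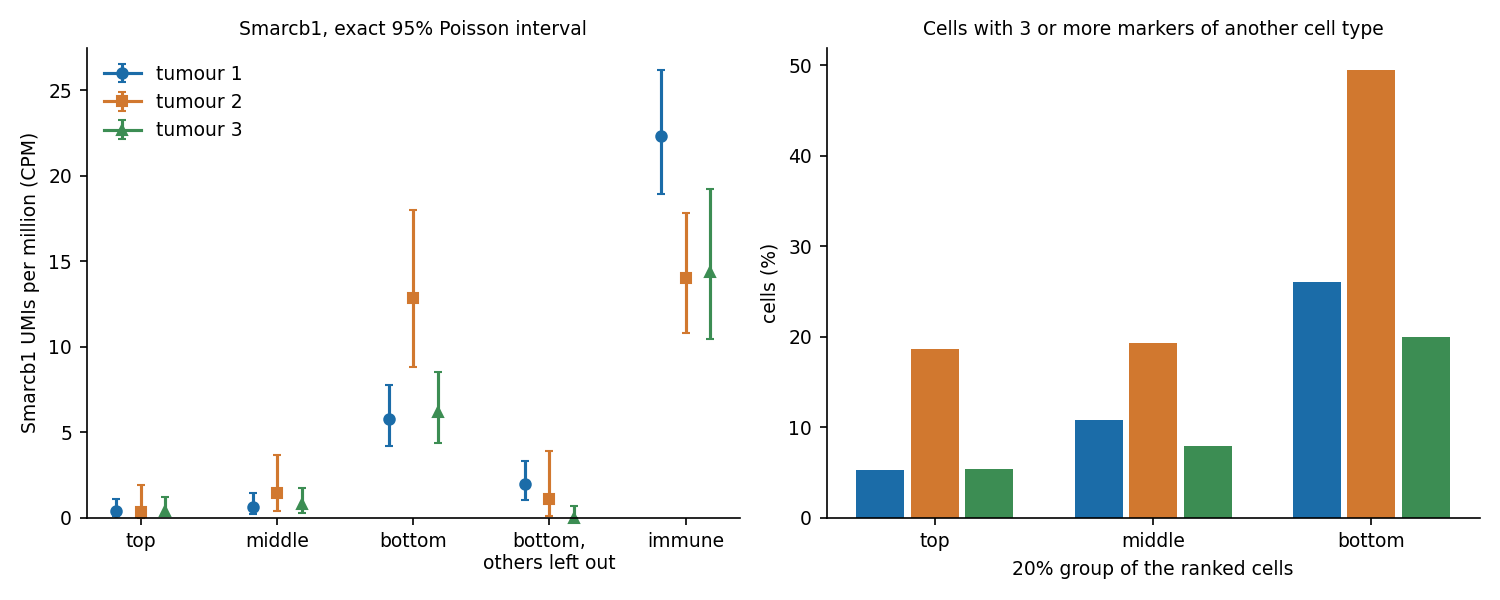
Left, Smarcb1 level in CPM (vertical axis) in the top, middle, bottom and re-drawn bottom groups and in immune cells, 1 point per tumour with its exact 95% Poisson interval. Right, percentage of cells in each group with 3 or more markers of another cell type, 1 bar per tumour. The top group sits between 0.344 and 0.424 CPM, and the bottom group loses most of its Smarcb1 signal once cells with other markers are left out.

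The top cells were slightly deeper than the bottom cells. Median UMIs per cell were 10052, 8863 and 19182 in the top group and 9516, 8376 and 16990 in the bottom group, and mitochondrial shares had medians of 4.14, 4.33 and 4.09% and 4.55, 4.76 and 3.92%. The 3 libraries held 79529921, 40151353 and 67645602 UMIs. They shared 22 to 42 barcodes pairwise, 7 of them counted over pairs among ranked cells and 1 within the top groups. Likely doublets, set by a fixed rate of 0.8% per 1000 barcodes because Scrublet's own threshold marked 0, 0 and 2 barcodes, made up 6.63, 1.73 and 1.14% of the top group and 2.90, 1.04 and 1.71% of the bottom group.

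The values that chose the cells are given as a description and carry no test. Sox11 supplied 77.4, 78.8 and 69.4% of the marker UMIs in the top group, so the ranking was mostly a ranking by Sox11. Its level was 5693, 5504 and 3495 CPM in the top group, 1930, 1580 and 1534 CPM in the middle group and 321, 222 and 338 CPM in the bottom group. Cd24a, a surface glycoprotein of immature neural cells, stood at 626, 647 and 626 CPM against 112, 61.5 and 87.7 CPM in the bottom group. Sox1 had 419, 461 and 319 against 74.7, 41.2 and 110.1 CPM, and Epcam, an epithelial adhesion molecule, 485, 244 and 427 against 92.0, 46.3 and 83.7 CPM. Msx3, a homeobox gene of the dorsal neural tube, was at 131, 126 and 166 against 10.2, 1.95 and 12.4 CPM. These UMIs are counted at 3′ ends and are compared between groups of cells, not between genes.

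The cut lay inside a continuum. The lowest member of the top group had 0.545, 0.506 and 0.383% of its UMIs in the markers, and the cell just below it 0.544, 0.503 and 0.383%. Within 10% of the cut lay 344, 116 and 205 cells, so the top group is a range of a score and not a separate type. The median share was 0.694, 0.670 and 0.465% in the top group, 0.304, 0.260 and 0.233% in the middle and 0.0593, 0.0360 and 0.0666% in the bottom group. Immune cells, which should lack Sox11, had 666, 812 and 968 CPM of it, above the bottom group in all 3 tumours. Free RNA or doublets were not corrected for, and levels at or below those of the immune cells are read as background.

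**Figure D2:**
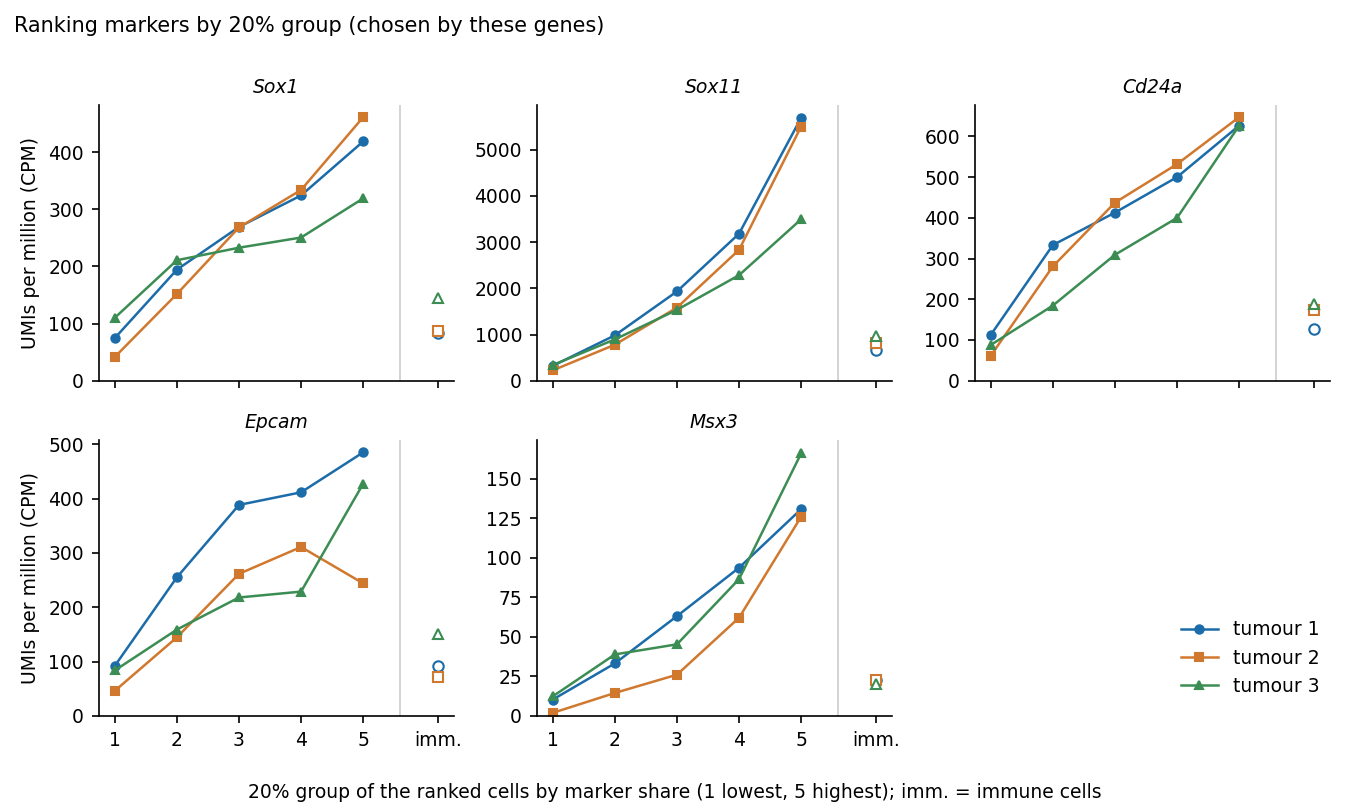
Level of each ranking marker in CPM (vertical axes, linear from 0) in 5 equal groups of ranked cells from lowest to highest marker share, 1 line per tumour, with immune cells of the same tumour as open symbols. The cells were chosen by these genes, so their rise is by construction; Epcam in tumour 2 was lower in the highest group (244 CPM) than in the middle group (262 CPM).

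Whether the 5 markers mark the same cells was asked by ranking on 4 of them and reading the one left out. Cd24a rose by 1.47 on the log2 scale (SE 0.13, adjusted p 0.00135), from 219, 148 and 166 to 508, 546 and 462 CPM. Msx3 rose by 2.94 (SE 0.26, adjusted p 0.00172), Sox11 by 1.46 (SE 0.24, adjusted p 0.0177) and Sox1 by 1.38 (SE 0.30, adjusted p 0.0164). The bottom level lay below that of immune cells for Msx3 in tumours 1 and 2 (14.3 and 6.64 against 22.9 and 22.9 CPM), for Cd24a in tumours 2 and 3 and for Sox11 in tumour 2, so the sizes of these differences are uncertain. These 4 markers were higher in 3 of 3 tumours, although the calls for Sox1 and Sox11 were lost without tumour 1 (adjusted p 0.0884 and 0.0759), and that for Sox1 also without tumour 2 (adjusted p 0.0727). With cells carrying host markers left out before ranking, the differences were smaller and still passed. They were 1.18 for Cd24a, 2.59 for Msx3, 1.09 for Sox11 and 1.07 for Sox1. Epcam differed by 0.26 (SE 0.08, adjusted p 0.0553) and did not pass the threshold of 0.05, with 351, 206 and 232 CPM against 263, 156 and 201 CPM. The share of all genes called in these fits was 36.2% without Cd24a, 35.7% without Msx3, 12.9% without Sox11, 36.4% without Sox1 and 37.7% without Epcam, so the ranking that left out Sox11 called the fewest genes. With cells ranked on a random 50% of their UMIs and read in the remaining UMIs, the differences shrank from 3.97 to 3.56 for Sox11 and from 2.31 to 1.91 for Epcam.

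Across all genes, the top and bottom groups differed widely. With the ranking and gating genes left out, 4789 of 13213 genes tested passed the threshold (36.2%), 2049 higher (15.5%) and 2740 lower (20.7%) in the top group. Against the re-drawn bottom group 27.8% passed (12.1% higher and 15.6% lower), and against the middle group 1078 of 12876 genes (8.37%, of which 3.34% higher and 5.03% lower). The comparisons with the bottom and middle groups share the same top cells, while the re-drawn comparison used a top group drawn anew from the remaining cells. The count against the bottom group was 1053 without tumour 1 and 2537 without tumour 2, and against the middle group 117 without tumour 1 and 1994 without tumour 3. The gene lists below are read against these shares. Leaving out tumours 1, 2 and 3 in turn moved many of the list counts, and those counts are given in that order where they did.

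Among the 25 lists, genes of the SoxC and proneural list rose in the largest share. Of 15 tested, 12 rose against the bottom group (11 by DESeq2), with a median log2 difference of 2.25 where the median of all genes was -0.01. Against the re-drawn bottom group 12 of 15 rose, and against the middle group 9 of 15, with a median of 1.21 (0.42 with cells ranked by the mean z-score of the markers, which weighs all 5 alike). No gene of the list fell in either comparison, whether by edgeR, by DESeq2 or at an unadjusted p under 0.05 (0 genes in each), but with the mean z-score ranking 1 gene, Neurod1, was called lower than in the middle group. Without tumour 1, the counts of risen genes were 7 of 14 and 8 of 14. The list was drawn up with earlier results of these tumours known and is no independent evidence of its direction.

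Dll1 and Dll3 of the list were higher. Dll1 (ENSMUSG00000014773, chromosome 17, 15367354 to 15376872) stood at 265, 196 and 251 CPM in the top group against 78.8, 63.5 and 53 in the middle and 15.3, 15.6 and 12.4 in the bottom group, a log2 difference of 4.00 (SE 0.17, adjusted p 4.37e-04) from the bottom and 1.86 (adjusted p 3.43e-05) from the middle. Immune cells held 25.6, 28.4 and 48.9 CPM, so the bottom group lay at or below background. With each cell thinned to 5000 UMIs, Dll1 was detected in 42.1, 36.0 and 39.3% of the top cells, 18.6, 15.9 and 14.2% of the middle cells and 4.83, 8.30 and 4.27% of the bottom cells, and in 6.76, 6.24 and 8.27% of immune cells. Unthinned, at median depths of 10052, 8863 and 19182 UMIs, 51.4, 48.1 and 53.6% of the top cells had a UMI. Absence in a single cell at this depth cannot be told from low expression. Dll3, a ligand-like protein that damps Notch signalling within the cell, had 48.3, 40.9 and 78.2 CPM against 7.47, 4.28 and 3.42 CPM (3.37, adjusted p 0.00289). The top and bottom values did not overlap for either gene. How many of all genes do likewise was not counted, and 36.2% of all genes passed the threshold in that comparison. Mfng, a glycosyltransferase that modifies Notch, rose by 4.19 (adjusted p 0.00386), but immune cells held more of it (26.0, 24.8 and 19.8 CPM) than the top group (15.9, 13.7 and 9.32 CPM). Hes6, which favours neuronal differentiation by opposing Hes1, went from 33.7, 28.0 and 57.4 to 276, 188 and 245 CPM (2.55, adjusted p 0.00132), with 38.3, 42.3 and 92.0 CPM in immune cells. Jag1, a further Notch ligand, rose by 0.96 (adjusted p 0.0373).

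Insm1, a zinc-finger factor of cells leaving the cycle toward neurons, was at 121, 86.6 and 25.4 CPM in the top group and 4.98, 4.28 and 3.91 CPM in the bottom group, a log2 difference of 3.88 (SE 0.36, adjusted p 0.00208). Immune cells held 10.1, 15.1 and 6.39 CPM, so the bottom group lay below background and the size of the difference is uncertain. It was detected in 26.4, 22.5 and 7.12% of top cells thinned to 5000 UMIs and in 3.91, 4.02 and 0% of immune cells, and unthinned in 34.5, 31.1 and 14.2% of top cells, lowest in tumour 3. Sox4, the other abundant SoxC gene, had 2792, 3058 and 736 CPM against 538, 443 and 211 CPM and rose by 2.25 (adjusted p 0.00137), again with the lowest top value in tumour 3. Neurog2, a proneural factor of excitatory lineages, rose by 2.70 (adjusted p 8.04e-04) against the bottom group but not against the middle group (1.21, adjusted p 0.105). Gadd45g (1.17), Sox12 (1.07), Tcf3 (0.48) and Tcf12 (0.38), the last 2 being E proteins that partner proneural factors, also rose against the bottom group, Tcf12 in that comparison alone. There Neurog1 (1.10), Neurod1 (1.77) and Btg2 (0.11) did not pass, but Neurod1 rose against the re-drawn bottom group (2.66, adjusted p 0.0191) and Btg2, which is also on the dissociation list, against the middle group (0.34, adjusted p 0.0111).

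The promoters of this list were searched for a motif. Proneural factors bind DNA as dimers with E proteins at E-boxes, among them CAGCTG, which reads the same on both strands. In the 250 bases before each start site in RefSeq's GRCm38.p6 annotation, the letters CAGCTG stood in at least 1 window of 6 of the 12 list genes that had a window (Dll1, Dll3, Gadd45g, Hes6, Sox4 and Tcf12). Over all 27025 genes of that annotation, 14.7% had it in a window. A match is a description of the letters, not of binding. The windows of 3 of these genes follow (for Dll1 and Hes6, 1 of their windows), 5′ to 3′ on the gene's strand with the motif in capitals, for Dll1 at chr17:15376933-15377182 (minus strand), Hes6 at chr1:91413223-91413472 (minus strand) and Gadd45g at chr13:51846425-51846674 (plus strand).
Dll1: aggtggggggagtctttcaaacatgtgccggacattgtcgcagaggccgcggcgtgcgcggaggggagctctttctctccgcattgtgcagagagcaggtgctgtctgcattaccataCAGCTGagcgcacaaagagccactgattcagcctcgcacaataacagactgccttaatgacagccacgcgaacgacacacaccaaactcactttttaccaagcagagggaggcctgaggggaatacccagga
Hes6: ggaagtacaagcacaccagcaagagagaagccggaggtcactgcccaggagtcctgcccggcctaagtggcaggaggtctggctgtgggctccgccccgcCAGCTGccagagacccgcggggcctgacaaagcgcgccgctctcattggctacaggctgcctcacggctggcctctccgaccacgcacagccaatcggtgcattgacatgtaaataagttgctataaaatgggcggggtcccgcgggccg
Gadd45g: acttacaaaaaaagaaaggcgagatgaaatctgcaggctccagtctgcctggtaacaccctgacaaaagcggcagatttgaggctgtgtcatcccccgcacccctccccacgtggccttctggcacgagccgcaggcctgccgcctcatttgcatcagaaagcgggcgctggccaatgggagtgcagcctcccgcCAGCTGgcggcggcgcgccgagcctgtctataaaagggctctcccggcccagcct

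**Figure D3:**
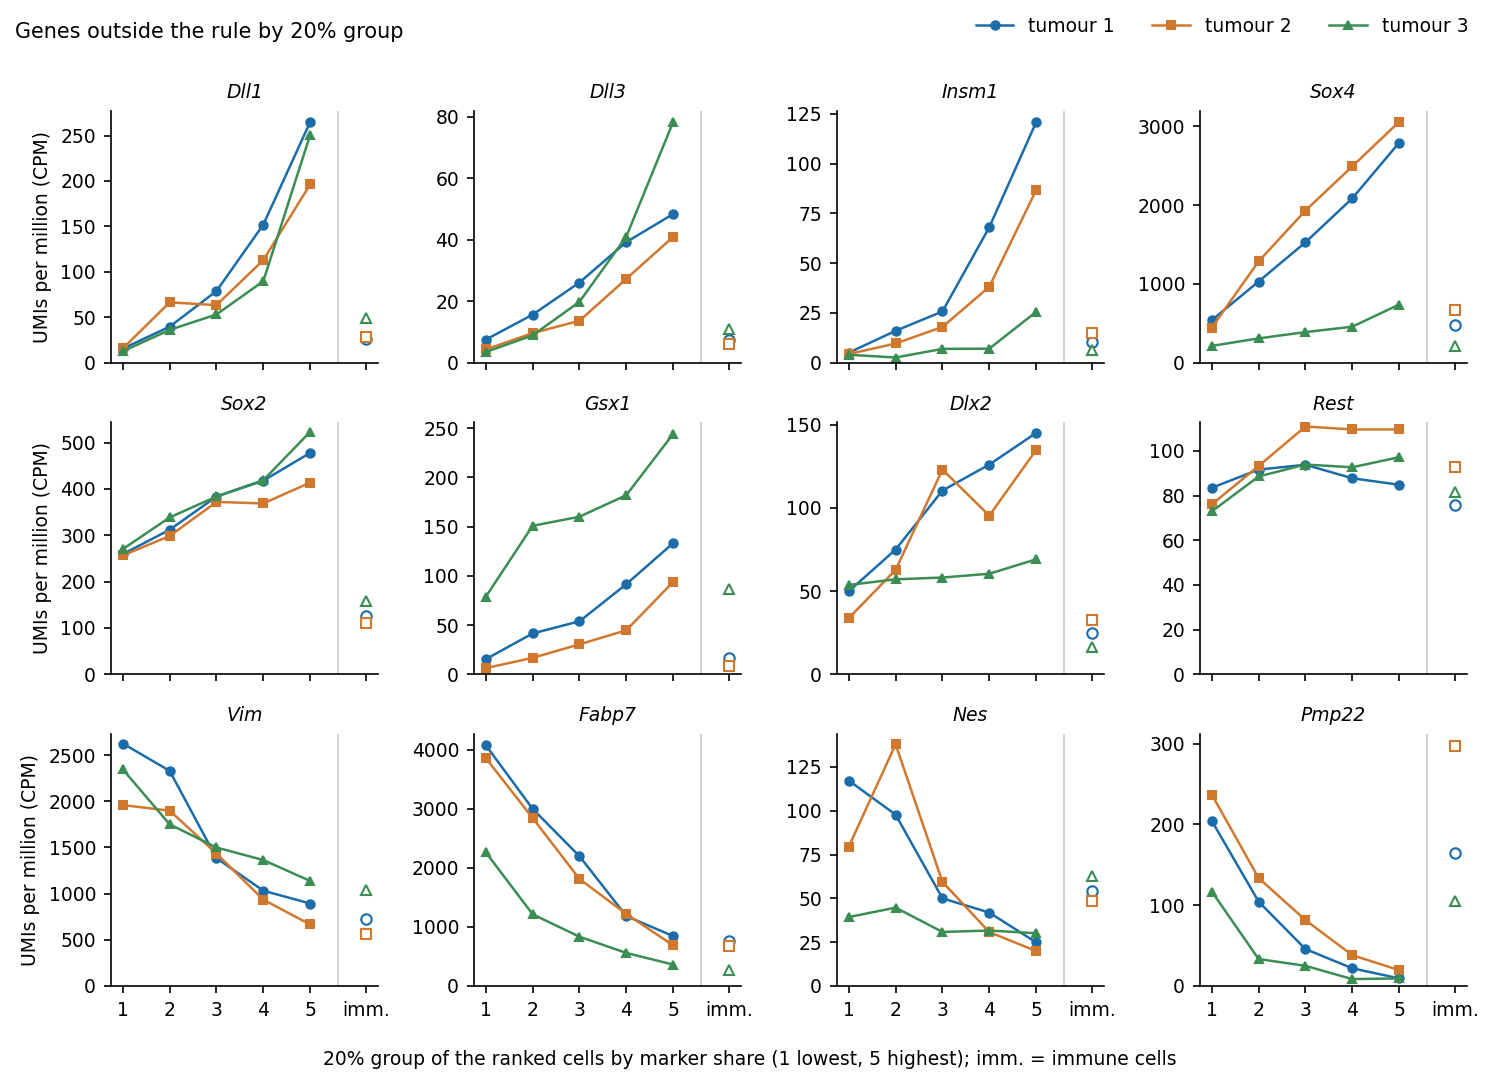
Levels in CPM (vertical axes, linear from 0) of 12 genes outside the ranking and gates over 5 equal groups from lowest to highest marker share, 1 line per tumour, immune cells as open symbols. Dll1, Dll3, Insm1, Sox4, Sox2 and Gsx1 are highest and Vim, Fabp7 and Pmp22 lower in the top group than in the bottom group in all tumours; Rest stays between 72.9 and 111 CPM.

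Of 17 ganglionic eminence genes tested, 7 rose against the bottom group (among them Dlx5, Gsx1, Dlx2 and Dlx1; median 1.23), 10 rose against the re-drawn bottom group and 5 against the middle group (2, 5 and 11 without tumours 1, 2 and 3 against the bottom, and 1, 8 and 10 against the middle group). Gsx1, a homeobox factor of early progenitors there, had 133, 93.8 and 244 CPM in the top group, 53.8, 30.1 and 160.1 in the middle and 15.3, 6.22 and 78.8 in the bottom group (2.56, adjusted p 0.00675). Tumour 3 was the highest in every group. Immune cells held 16.4, 8.49 and 86.3 CPM, so the bottom group lay below them. Dlx2, which acts after Gsx factors in inhibitory neuron precursors, stood at 145, 135 and 69.1 against 49.95, 33.9 and 53.6 CPM (1.2, adjusted p 0.0259). In tumour 3 the gap was small, and against the middle group Dlx2 did not pass (0.24, adjusted p 0.0818). Dlx5 rose by 3.04 (adjusted p 0.00555) at low levels of 20.5, 22.3 and 6.64 CPM. The later markers of inhibitory neurons Gad1 and Gad2 did not pass (-0.24 and 0.50, adjusted p 0.788 and 0.202).

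The label was checked against 20 neural progenitor genes that the ranking did not use, and they were divided. Of the 20, 5 rose against the bottom group (Msi1, Sox21, Sall3, Sox2 and Msi2), 6 fell (Fabp7, Dbi, Nes, Vim, Ncald and Ednrb) and the median was 0.10. Sall3 did not pass against the re-drawn bottom group (0.74, adjusted p 0.0879). The number that rose was 1, 4 and 5 without tumours 1, 2 and 3. Against the middle group 5 rose (0, 4 and 5) and 4 fell (1, 5 and 8). Sox2 had 478, 414 and 523 CPM in the top group and 259, 257 and 270.1 CPM in the bottom group (0.77, adjusted p 0.00466), and Msi1, an RNA-binding protein of neural progenitors, 264, 411 and 196 against 97.5, 114 and 80.9 CPM (1.45, adjusted p 0.00139). The Sox2 call was lost without tumour 1 (0.74, adjusted p 0.0598). Against the middle group Sox2 was called higher by edgeR but not by DESeq2 (0.28, adjusted p 0.0851 by DESeq2).

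Other genes of the same list fell. Vim, an intermediate filament, fell from 2621, 1963 and 2344 CPM in the bottom group to 892, 666 and 1137 CPM in the top group (-1.46, adjusted p 0.00203). Fabp7, a fatty acid-binding protein of radial glia, stood at 845, 688 and 362 against 4079, 3838 and 2262 CPM (-2.54, adjusted p 3.24e-04) and also fell against the middle group (-1.36, adjusted p 5.05e-06). Nes had 24.9, 19.9 and 30.1 against 118, 79.8 and 39.3 CPM (-1.60, adjusted p 0.0262), with a small gap in tumour 3 and no call against the re-drawn bottom group (-1.75, adjusted p 0.0639) or the middle group (-0.81, adjusted p 0.0528). Pax6, the factor of dorsal forebrain radial glia, was low at 3.33, 12.4 and 0.424 CPM and did not pass (-0.37, adjusted p 0.551). The cells are therefore best described by their leading genes. They were ranked mostly by Sox11, so its high level is by construction. Outside the ranking, Sox4 and Dll1 were high, Sox2 and Msi1 of the progenitor list were higher, and Vim and Fabp7 were lower.

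Of 20 genes of neural stem cells and glia, 14 fell against the bottom group (median -1.76), 12 of 20 fell against the re-drawn bottom group and 11 of 19 against the middle group (7, 8 and 15 without tumours 1, 2 and 3). Without tumour 3, 4 genes of the list rose against the bottom group, where none did with all 3 tumours (2 at an unadjusted p under 0.05, 1 by DESeq2). The summed level of the list was 6668, 7655 and 4763 CPM in the top, 12272, 16649 and 9317 in the bottom group and 35471, 47160 and 31957 CPM in immune cells, where Apoe (23930, 38270 and 24960 CPM) made up most of it, so for that gene, and for Cst3, the bottom group lay below the immune level. Clu, a secreted chaperone of glia, had 6.54, 23.0 and 4.66 CPM in the top group and 110.3, 158 and 95.7 CPM in the bottom group (-3.77, adjusted p 0.00137). Sox9, a factor of neural stem cells and astrocytes, was 327, 442 and 276 against 486, 1110 and 419 CPM (-0.90, adjusted p 0.0158) and did not pass against the middle group (-0.37, adjusted p 0.0585). Hopx and Sox8 fell by 3.25 and 3.44 (adjusted p 0.0102 and 0.0102). Sox8 was too low to be tested against the middle group, so it passed the filter on low counts only through the bottom group and its fall is a description. Id4, an inhibitor of proneural factors, did not pass (-0.07, adjusted p 0.852). Its tumours differed in direction, with 553, 531 and 147 CPM in the top and 482, 344 and 261 CPM in the bottom group. Without tumour 3 the difference was 0.33 (adjusted p 0.0287).

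Mesenchymal genes, which encode extracellular matrix and migratory factors, were lower in the top group. Their summed level over the whole list was 939.9, 1016 and 843 CPM in the top, 1412, 1939 and 1186 in the middle and 5399, 6161 and 3180 CPM in the bottom group, with 3249, 3198 and 2151 CPM in immune cells. Of 32 tested, 28 fell against the bottom group (median -3.37), 22 of 27 against the re-drawn bottom group and 13 of 27 against the middle group. Members that are near 0 in the top group could pass the filter on low counts only through the group they were compared with, so these counts and the median are a description. Without tumour 1 the counts were 19 of 31 against the bottom and 5 of 26 against the middle group. Pmp22, a membrane protein of Schwann and mesenchymal cells, had 9.36, 19.6 and 9.32 CPM in the top group, 45.7, 81.8 and 24.9 in the middle and 204, 237 and 117 in the bottom group (-3.98, SE 0.19, adjusted p 5.38e-04). The re-drawn bottom group held 207, 282 and 104 CPM. Immune cells held 165, 297.5 and 105 CPM, so the bottom level lay below theirs in tumour 2 and above it in tumours 1 and 3. Twist1, a driver of the mesenchymal state, stood at 67.2, 77.3 and 39.0 against 242, 254 and 59.0 CPM (-1.48, adjusted p 0.0111) and did not pass against the middle group (-0.61, adjusted p 0.0895), where tumour 3 went the other way (39.0 against 32.1 CPM). Col6a2, a collagen VI chain, fell by 5.74 (adjusted p 0.00254), while its partner Col6a1, which also fell, had only 1, 1 and 0 UMIs in the top group, too few for a fold. The bottom group held 94.8, 102 and 13.2 CPM of Col6a2 and the top group 0.513, 2.06 and 1.27 CPM. Pdgfrb, which mural cells also express, went from 19.9, 21.8 and 61.6 to 1.02, 0 and 0.424 CPM (-5.82, adjusted p 0.00207). It was too low to be tested in the other comparisons and passed the filter only through the bottom group, so this fall is a description. In the re-drawn bottom group Pdgfrb was 3.01, 3.80 and 0.906 CPM, but it was among the mural markers used to leave cells out.

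Neuronal genes gave a partial pattern. Of 22 tested, 6 rose and 3 fell against the bottom group, and 8 rose against the middle group. The number that rose was 3, 6 and 8 without tumours 1, 2 and 3 against the bottom and 3, 8 and 9 against the middle group, and the number that fell against the bottom was 2, 2 and 8. The gate had already removed cells with 2 or more of Dcx, Stmn2 and Elavl4, so the most neuron-like cells were not ranked. Tubb3, the neuronal beta-tubulin, had 51.4, 43.0 and 30.8 CPM in the top group, 22.4, 17.2 and 14.3 in the middle and 13.6, 19.8 and 6.197 in the bottom group (1.72, adjusted p 0.00670; 1.62, adjusted p 0.0721, without tumour 1). Crmp1, a protein of growing axons, rose by 1.57 (adjusted p 0.00407). The synaptic genes Snap25 and Syt1 did not pass (-0.83 and 0.01). The score weighed on this group, since with cells ranked by the mean z-score Tubb3 differed from the bottom group by 0.12 (adjusted p 0.704) and Crmp1 by 0.43 (adjusted p 0.145). That ranking also turned Tubb3 against the middle group from 1.17 to -0.60 (adjusted p 0.0406) and gave 1 higher and 4 lower neuronal genes.

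Repressors of neuronal genes and Notch receptors and effectors showed no common direction. Of 19 tested, 4 rose (Rcor2, Jag1, Rcor1 and Notch2) and 5 fell (Dlk1, Hey2, Notch3, Notch1 and Rfng) against the bottom group, and 2 rose and 3 fell against the middle group. In the comparison with the re-drawn bottom group 4 rose (Rcor2, Jag1, Hes5 and Rcor1) and 2 fell (Dlk1 and Rfng). The calls for Notch2, Hey2, Notch3 and Notch1 were lost there, and Notch3 was among the mural markers used to leave cells out. Against the bottom group the number that rose was 0, 3 and 5 without tumours 1, 2 and 3, and the number that fell 1, 1 and 7. Rest, the master repressor of neuronal genes, was 84.8, 109.6 and 97.2 CPM in the top and 83.4, 75.9 and 72.9 CPM in the bottom group and did not pass (0.24, adjusted p 0.152; with cells ranked by the mean z-score 0.37, adjusted p 0.0446, and with all 5 groups in one fit 0.26, adjusted p 0.0177). Its corepressor Rcor2 rose by 2.34 (adjusted p 0.0125), from 5.11, 5.45 and 2.45 to 20.6, 14.1 and 30.9 CPM. The Notch effectors Hes1 and Hes5 did not pass (-0.09 and 0.13, adjusted p 0.420 and 0.613), and of the 3 comparisons Hes5 rose only in that with the re-drawn bottom group (0.54, adjusted p 0.0219). Dlk1, a non-canonical Notch ligand, fell from 114, 52.9 and 29.2 to 2.44, 3.78 and 0 CPM (-5.37, adjusted p 0.00201), and Hey2, a Notch target, differed by -1.67 (adjusted p 0.0387) from the bottom group but by -0.86 (adjusted p 0.0905) from the re-drawn bottom group.

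SWI/SNF subunits other than Smarcb1 leaned upward. Of 28 tested, 13 rose and 2 fell against the bottom group, Smarcb1 itself and Bcl7b, and 14 of 27 rose against the re-drawn bottom group. Against the middle group 5 of 27 rose (Bcl7a, Smarca4, Smarcc1, Smarce1 and Pbrm1), and the number that rose was 4, 10 and 15 without tumours 1, 2 and 3 against the bottom and 0, 3 and 11 against the middle group. At an unadjusted p under 0.05, 6 rose against the middle group without tumour 1. Smarcc1, a core scaffold subunit, had 269, 286 and 242 against 122, 114 and 118 CPM (1.09, adjusted p 0.00132), and Bcl7a 184, 192 and 154 against 51.1, 68.9 and 65.9 CPM (1.45, adjusted p 0.00218). The progenitor subunit Actl6a rose by 0.73 (adjusted p 0.00557). Its neuronal counterpart Actl6b was low, at 4.87, 4.12 and 1.13 CPM, and did not pass (0.89, adjusted p 0.205).

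In the SHH pathway, which the tumour subgroup is named after, 5 of 12 rose (Gli2, Sufu, Boc, Smo and Ptch1) and the ligand gene Shh fell against the bottom group, from 28.7, 17.5 and 11.4 to 6.15, 4.81 and 6.07 CPM (-1.73, adjusted p 0.0108), while against the middle group Shh alone passed (-1.21, adjusted p 0.0298). The pathway target Gli1 was 12.8, 15.1 and 14.0 against 14.0, 17.9 and 5.87 CPM (0.21, adjusted p 0.656), and Gli2 and Sufu differed by 0.90 and 0.68. Of 13 dorsal neural tube genes 4 rose and 2 fell, among them Pax3 (1.18, adjusted p 0.0377) and Rspo3 (-4.60). With the re-drawn bottom group the counts were 3 and 3 (median 0.0045), and Pax3 did not pass (0.60, adjusted p 0.0775). None of the 13 rose by edgeR or DESeq2 against the middle group (2 at an unadjusted p under 0.05) and 2 fell, among them Rspo3 (-2.11, adjusted p 0.00446). Of 10 midbrain-hindbrain boundary genes 1 rose (En1, 0.56) and 1 fell (Spry1, -1.46). En1 did not pass against the re-drawn bottom group (0.32, adjusted p 0.0830), where no boundary gene was called higher, and against the middle group En1 did not pass (-0.03) while Spry1 fell (-0.55, adjusted p 0.00550). Oncofetal genes counted 7 higher and 2 lower of 15, with Mycn at 136, 124 and 149.6 against 29.4, 12.8 and 49.2 CPM (2.16, adjusted p 0.00411), Igf2bp1 at 2.17 and the imprinted growth-linked RNA H19 at -2.95. Against the middle group 4 oncofetal genes rose and 2 fell. Without tumours 1, 2 and 3 in turn, the number that rose against the bottom group was 1, 0 and 7 in the SHH list, 0, 0 and 5 in the dorsal list, 0, 1 and 2 in the boundary list and 2, 6 and 7 in the oncofetal list. Lin28b was near 0 and did not pass (1.01, adjusted p 0.238).

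Although Epcam was a ranking gene, other epithelial genes were barely present. Krt8 had 0.641, 0.344 and 0 CPM and Krt18 0, 0 and 0 CPM in the top group, too few to be tested, and Cdh1 had 2.05, 1.03 and 3.11 CPM (-0.70, adjusted p 0.248). Cdh2, the neural cadherin, was 141, 187 and 102 against 141, 146 and 94.8 CPM and did not pass (0.08, adjusted p 0.509). Of 20 junction and polarity genes tested, 5 rose (Cldn3, Grhl2, Crb1, Lsr and Spint2) and 3 fell (Jup and Tjp1 among them) against the bottom group, and 4 of 22 rose against the middle group. Lsr (1.36, adjusted p 0.121) and Jup (-0.55, adjusted p 0.0865) did not pass against the re-drawn bottom group. The number that rose against the bottom was 2, 4 and 5 without tumours 1, 2 and 3. Grhl2, an epithelial transcription factor, rose by 2.65 (adjusted p 0.00592) at 4.61, 3.44 and 7.49 CPM. Cldn3, a tight junction claudin, rose to 2.05, 3.78 and 14.4 CPM (adjusted p 0.00371) from only 1, 1 and 2 UMIs in the bottom group, too few for a fold. There Cldn3 passed the filter on low counts only through the top group, so its call, counted among the 5 above, is a description. Immune cells of tumour 3 held 11.8 CPM of Cldn3. Crb1, an apical polarity protein, had 24.2, 18.6 and 26.0 against 7.60, 5.83 and 7.83 CPM (1.63, adjusted p 0.00234).

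Cell cycle genes were little changed in these cells, from which strongly mitotic cells had been gated out. Of 20 S phase genes 3 rose against the bottom group (Mcm2, Mcm7 and Gins2, by 1.09, 1.08 and 0.66), and 3 fell against the middle group (0, 8 and 3 without tumours 1, 2 and 3). Of 16 G2 and mitosis genes 1 rose (Cks2, 0.59) and 1 fell (Ccna2, -1.12). Gins2 (0.42, adjusted p 0.0819) and Cks2 (0.40, adjusted p 0.0583) did not pass against the re-drawn bottom group, and immune cells held more Cks2 (87.2, 51.4 and 136 CPM) than the top group (36.1, 38.1 and 61.9 CPM). Genes induced by tissue dissociation were lower, with 13 of 16 down against the bottom group and 8 against the middle group (2, 8 and 14 without tumours 1, 2 and 3). Jun was 459.5, 506 and 399.8 against 1077, 1194 and 962 CPM (-1.32), and Hspa1a and Hspa1b, near-identical copies whose reads may be split between them, differed by -3.82 and -3.05. Ier3 differed by -3.62 from the bottom group, but did not pass against the re-drawn bottom group (-1.41, adjusted p 0.118) or the middle group (-1.15, adjusted p 0.0902), and immune cells held 278, 224 and 187 CPM of it. These genes moved with the ranking, and their part in the other differences was not tested. Hypoxia and glycolysis genes counted 7 lower of 15 (1, 3 and 8 without tumours 1, 2 and 3), including Ldha (-2.0), Adm (-1.91) and Ndrg1, which had only 2, 2 and 0 UMIs in the top group, and 1 lower of 14 against the middle group.

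Markers of host cells were lower in the top than in the bottom group for 9 of 9 oligodendrocyte genes (Mal -8.24, Cldn11 -7.79), 7 of 8 precursor genes (Sox10 -5.98 and Lhfpl3 -5.29), 9 of 9 astrocyte genes (Acsbg1 -3.87, Slc7a10 -3.67), 10 of 10 mural genes (Rgs5 -6.70 and Higd1b -6.40), 2 of 6 ependymal and choroid plexus genes (Foxj1 -1.57) and 1 of 7 immune genes. Genes that are low in the top group could pass the filter on low counts only through the bottom group, so these counts are a description of the bottom group. Only 3 of 9 endothelial and 1 of 5 erythroid genes passed it, and the summed endothelial level was 4.74, 6.18 and 5.51 CPM in the top and 25.6, 21.4 and 51.0 CPM in the bottom group. The summed erythroid level was 3.20, 49.1 and 0.706 against 3.67, 258 and 0.652 CPM, so the groups stood apart in tumour 2 alone. Against the bottom group no gene of these lists rose by edgeR or DESeq2, and at an unadjusted p under 0.05 1 immune gene was higher. Against the re-drawn bottom group the counts were 1 of 4 oligodendrocyte, 1 of 3 mural and 5 of 7 astrocyte genes, and 1 ependymal gene, Ccdc153, was higher (2.03, adjusted p 0.0479) at 5.00, 3.44 and 2.26 CPM. Markers of these types were used to leave cells out, so the counts in that comparison are in part set by the selection. Of 5 precursor genes tested against the re-drawn bottom group, 4 fell (Lhfpl3, Olig1, Cspg5 and Pdgfra), with a median of -1.56. Of the precursor list only Cspg4, which is also a mural marker, was used to leave cells out, and it was not tested there. Against the middle group the oligodendrocyte, mural and astrocyte counts were 2 of 6, 2 of 6 and 5 of 8. Without tumour 2, 5 of 9 astrocyte genes fell against the bottom group, and without tumour 1 no oligodendrocyte, mural or astrocyte gene fell against the middle group (1, 3 and 4 at an unadjusted p under 0.05).

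**Figure D4:**
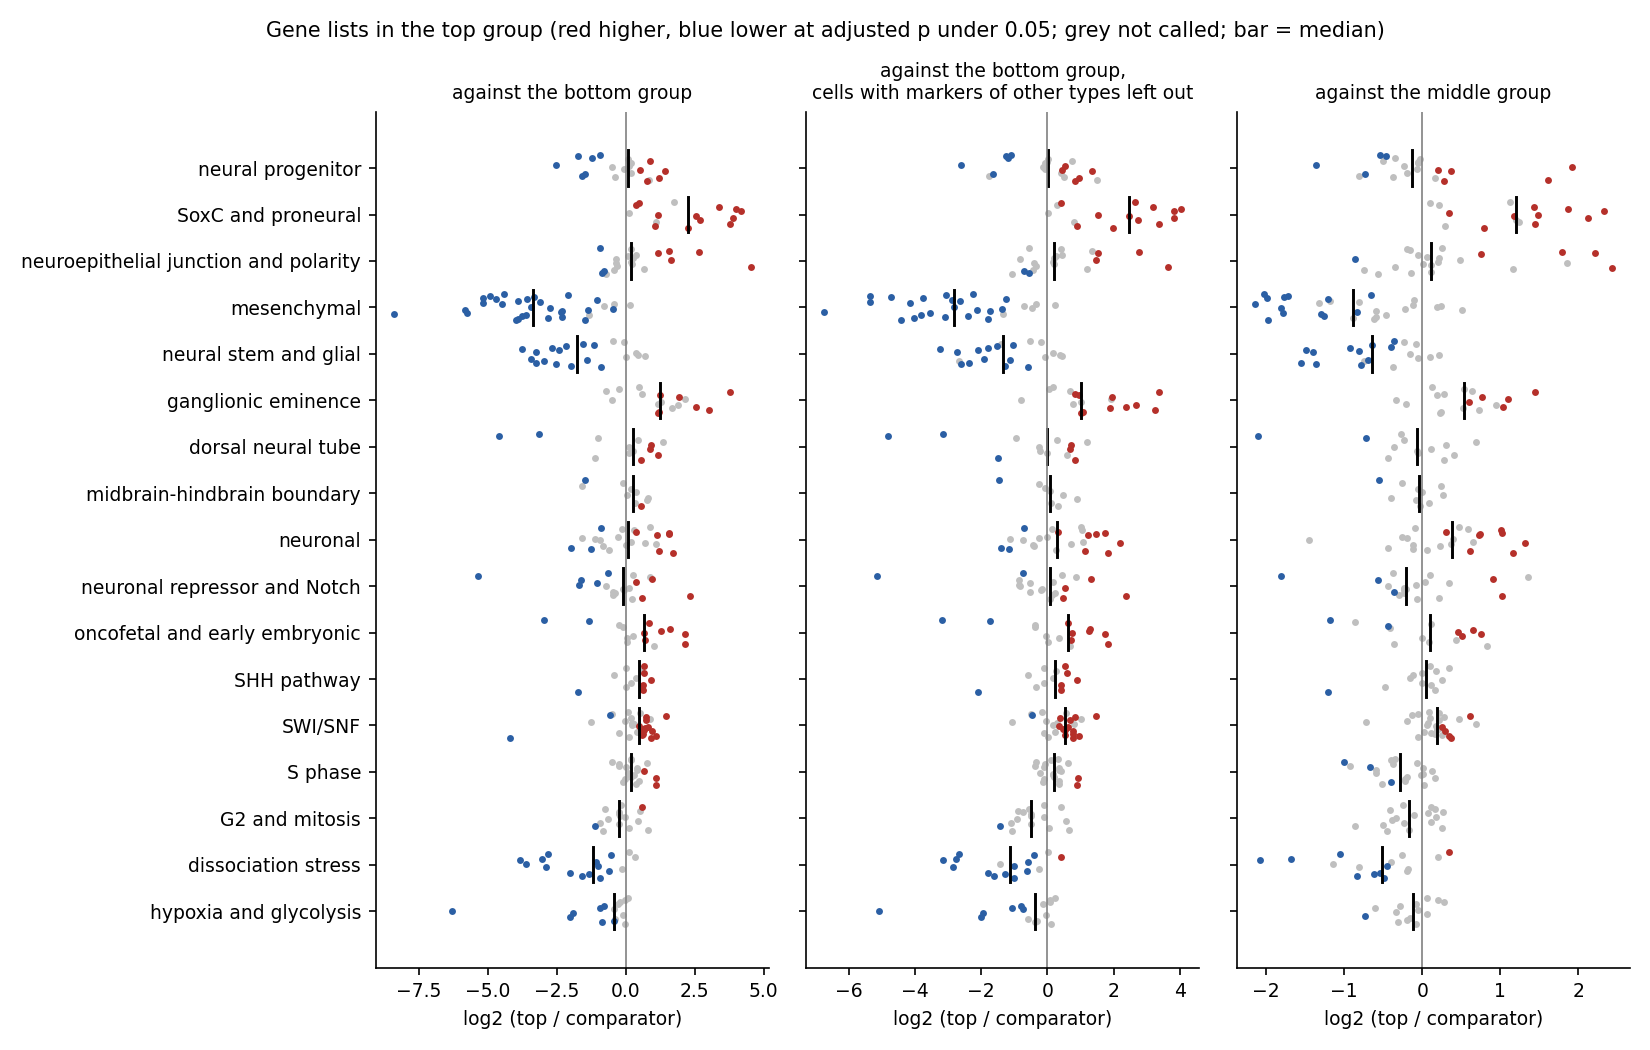
Log2 difference of each tested gene (horizontal axis, 1 point per gene) in 17 gene lists, top group against the bottom, re-drawn bottom and middle groups. In the re-drawn comparison the top group was re-drawn too. Red and blue points passed an adjusted p of 0.05, grey points did not, and black bars are list medians. The SoxC and proneural list lies to the right (medians 2.25, 2.48 and 1.21) and the mesenchymal list to the left (medians -3.37, -2.81 and -0.89) in every panel; the horizontal scales differ.

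Over all genes with at least 50 CPM in the higher group and the same direction in 3 of 3 tumours, the largest rises included those of Dll1, Insm1, Dll3, Enc1, Elavl2, Onecut2 and Gsx1. Enc1, an actin-binding protein of the embryonic nervous system, had 361, 295 and 150.1 CPM in the top group against 117, 81.8 and 60.3 in the middle and 33.4, 32.7 and 28.4 in the bottom group (2.94, adjusted p 0.00112), where it lay below the 52.0, 68.6 and 41.5 CPM of immune cells. Elavl2, an RNA-binding protein of early neurons, had 161, 162 and 81.3 against 25.4, 17.1 and 15 CPM (2.68, adjusted p 6.28e-04). Onecut2, a homeobox factor of newborn neurons, stood at 88.8, 87.6 and 111 against 8.52, 19.1 and 19.9 CPM (2.63, adjusted p 0.00207). These 7 were also higher than in the middle group in 3 of 3 tumours and passed the threshold there, although with the mean z-score ranking Gsx1 (0.55, adjusted p 0.0691) and Elavl2 (0.36, adjusted p 0.177) did not. The largest falls were Mal, Cxcl1, Cldn11, Cryab, Mag, Apod, Ptgds and Rgs5. Mal, Cldn11 and Mag are genes of myelin and Rgs5 is a gene of pericytes. Ptgds lost its difference against the re-drawn bottom group (-0.03, adjusted p 0.979), whereas Cryab, a small heat shock protein, kept it (-7.00, adjusted p 0.00522). Genes near 0 in the top group could pass the filter on low counts only through the group they were compared with, so these largest falls are a description.

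The top cells also varied among themselves. The summed level of the SoxC and proneural genes ran from 2694, 2757 and 1326 CPM at the 10th percentile of cells to 12416, 10811 and 8333 CPM at the 90th, around medians of 6319, 5497 and 3602 CPM. At 5000 UMIs, 43.9, 45.3 and 41.0% of top cells showed 4 or 5 of the ranking markers. Epcam was detected in 58.1, 47.1 and 45.9% of them, against 18.3, 12.3 and 18.8% of immune cells. Over all ranked cells, the Spearman correlation of Sox11 with Cd24a was 0.295, 0.361 and 0.253, and that of Sox11 with Epcam 0.0561, 0.0959 and -0.0758, over 3621, 1449 and 1755 cells of 1 library each at equal depth.

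The tumours differed in the regional genes of their top cells, which is given without a test. Pax3, a dorsal patterning factor, had 21.3, 46.4 and 683 CPM and Six3, an anterior forebrain factor, 15.9, 25.8 and 142 CPM, both highest in tumour 3. Sox21 had 183, 136 and 10.7 CPM and En1 368, 409.5 and 94.1 CPM, both lowest in tumour 3. Pax3 and Six3 were also highest in tumour 3 in the bottom group (4.46, 15.2 and 488 and 6.95, 19.4 and 106 CPM).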

How the data were processed

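Single-cell libraries of 3 R26-SHH tumours were read from the deposited matrices, which hold raw UMI counts per gene and barcode. Per the labels the authors made them with 10x 3′ V2 chemistry and, per the submitters' processing notes, Cell Ranger 3.1.0 on mm10. No ambient RNA correction is stated in the sources used here. Of 31053 gene identifiers, 31011 matched GENCODE M21. Gates, ranking and groups were as given in the report, with Python 3.11.15 and scanpy 1.11.5. Counts were summed per tumour and group and tested in edgeR 4.0.16 (R 4.3.3; quasi-likelihood, TMM, filterByExpr, tumour as block since groups come from the same animal), adjusting over all genes tested except the 18 ranking and gating genes. Depths per sum ran from 2570482 to 8098596 UMIs in the main top, middle and bottom groups, and the re-drawn bottom group of tumour 2 held 1843989 UMIs. The labels name the 3 samples as 1 group from different mice, and numbers 1 to 3 only name them. The fit was tested on simulated counts.

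Cells were chosen on the same libraries as the tests, so a gene that goes with Sox11 from cell to cell differs between the groups. The members and the 25 gene lists were chosen with earlier results of these data known. Genes named were the 5 markers, Smarcb1, 22 fixed genes, up to 3 per list by size among genes past the threshold and the same way in 3 of 3 tumours, and the 8 largest rises and falls at 50 CPM or more; Gad1, Gad2, Snap25, Syt1, Hes1, Hes6, Neurog1, Neurog2, Neurod1, Btg2, Gadd45g, Sox12, Tcf3, Tcf12, Jag1, Msi1, Jun, Six3, Sox21 and genes listed by name only were added after their values were seen. Alternatives changed the normalization, test (DESeq2 1.42.0), filter, block, tumours, share of cells, depth, mitochondrial limit, score, doublets and gates. Some items are not reported here.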

Additional observations from a re-analysis of the deposited data

How the results depend on the processing

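The calls rest on 3 tumours and on the pairing of groups within a tumour. Left out in turn, the tumours gave 1053 to 5592 calls against the bottom group and 117 to 1994 against the middle group, and 104 to 243 and 28 to 151 among the list genes; the marker left out of the ranking ranged over 1.06 to 1.87 for Sox1, 1.14 to 1.79 for Sox11, 1.32 to 1.59 for Cd24a, 2.70 to 3.29 for Msx3 and 0.20 to 0.32 for Epcam. No replicate block (tumour term dropped) gave 1995 calls (list genes 120) against the bottom group, 0 (list genes 0) by edgeR against the middle group, where 240 genes were higher and 370 lower at an unadjusted p under 0.05, and 1.47 for Sox11, no longer past the threshold. One fit over all groups gave 7351 calls against the bottom group. Against the middle group, all genes gave 391 calls with DESeq2, 586 with at least 10000 UMIs, 361 with the z-score (list genes 55), 1967 with no filter (list genes 160), 709 with halved UMIs and 716 with 10% of cells; fewer cells or UMIs enter several of these, and otherwise the cause was not tested. With at least 10000 UMIs Sox11 was at 1.61 and lost its call. Epcam passed with 10% of cells (0.69), the z-score (0.50), doublets left out (0.31), no cycling gate (0.36), no filter (0.30) and library sizes only (0.34, chosen after seeing the data) and without tumour 3, but was at 0.054 with host-marker cells left out (adjusted p 0.687), 0.11 when thinned and 0.12 with 30% of cells. Among single genes that changed sign, Pax6 was at 0.51 with host-marker cells left out, 0.020 with no block, 0.042 with 10% and 0.12 with 30% of cells. Id4 was at 0.0031 with library sizes only, 0.44 with the z-score, 0.097 with no block, 0.38 with 10% and -0.33 to 0.33 with each tumour left out in turn (lowest and highest). Hes5 was at -0.12 when thinned, -0.11 with 30% and -0.079 to 0.38 with tumours left out in turn, and Gli1 at -0.11 with host-marker cells left out and -0.24 to 0.48 with tumours left out in turn. Ccna2 was at 0.44 with no cycling gate, and Hbb-bs at 0.86 with the z-score and 1.06 with 30%. Against the middle group Tubb3 and Crmp1 were at -0.60 and -0.40 with the z-score. With it, calls against that group were also lost for Mfng, Rcor2, Smarcc1, Shh, Rspo3, Clu, Hopx and Col6a2, among others (0.40, 0.36, 0.22, -0.79, -1.49, -0.84, -1.29 and -1.01). The other 2324 values of single genes under an alternative kept direction and side of the threshold, 267 lost it and 3 gained it. Cell-level doublets, free RNA and the depth of single cells limit statements about absence. No scaling moved the median of all genes by as much as 0.1.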
